A study of Mus musculus with 26 samples.

Results

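Matricellular proteins are secreted into the extracellular matrix, where they bind collagens, growth factors and cell surface receptors and tune adhesion and signalling rather than bear load. The 10 genes described here encode the thrombospondins *Thbs1*, *Thbs2* and *Comp*, the SPARC family members *Sparc*, *Sparcl1*, *Smoc1* and *Smoc2*, the adhesion modulators *Tnc* and *Postn*, and the secreted serpin *Serpinf1* (PEDF). They were chosen by name with earlier results of these data known, and all 10 were present among the 16426 genes of both single-cell count tables and the 17623 genes of both bulk tables. Their levels and ratios are therefore a description, and none was tested.

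The single-cell libraries (scRNAseq) came from RPE/choroid, which holds the retinal pigment epithelium and the vascular layer beneath it, of 3-month-old mice. There was 1 library of the strain B6129PF1/J and 1 of C57BL/6J, each from 1 male and 1 female eye pooled, with viable nucleated cells sorted as Hoechst+ and TO-PRO-3-. Bulk RNAseq of RPE/choroid compared 3 *Ihh*+/+ with 3 *Ihh* iΔEC/iΔEC C57BL/6J libraries from 6-month-old mice, 12 weeks after tamoxifen. Both genotypes carried *Cdh5*-PAC-CreERT2, a Cre that tamoxifen activates in endothelial cells (ECs), and both received tamoxifen, so the deletion of floxed *Ihh* was confined by design to ECs of all organs and not to the choroid. A second bulk experiment used cultured choroidal GLI1+ cells, sorted by GFP from pooled *Gli1*GFP/+ mice and expanded for a few passages, and compared 3 libraries kept in the vehicle DMSO with 3 given 100 nM SAG for 24 h. The labels give the strain of these mice as SWR/J, and the methods say that the reporter line was outcrossed to BALB/c. SAG activates Smoothened, the signal transducer of the Hedgehog pathway, and *Ihh* encodes the Hedgehog ligand Indian hedgehog. Another 12 libraries, of ECs sorted from other organs and the neural retina, were not used here.

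Thrombospondin 1 binds CD36 and CD47, releases TGF-β from its latent complex and restrains vessel growth, an activity it shares with thrombospondin 2 and PEDF. COMP (cartilage oligomeric matrix protein) is a pentameric thrombospondin best known from tendon and cartilage. SPARC binds collagen and assists its assembly, SPARCL1 (hevin) is its vascular and neural relative, SMOC1 antagonises BMP signalling and is required for eye development, and SMOC2 is a basement membrane associated member of the same family. Tenascin-C and periostin appear in developing, healing and mechanically loaded tissue and bind integrins. PEDF, first purified from RPE cultures, is best known in the eye as a factor that restrains vessel growth and protects neurons.

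The B6129PF1/J library held 3637 cells and 17168578 unique molecular identifiers (UMIs, counts of captured transcripts), and the C57BL/6J library held 3928 cells and 15230413 UMIs. Their median depths were 3881 and 3174.5 UMIs per cell. The 13 cell clusters and their names are the authors' own. They are RPE (cluster 1), ECs with high (*Kdr*-high, 2), middle (*Kdr*-med, 3) and low (*Kdr*-low, 4) levels of *Kdr*, stromal cells (5 to 8), smooth muscle cells (9), melanocytes (10), hematopoietic cells (11) and Schwann cells (12 and 13). The libraries shared 22 barcodes, and 35 and 33 cells held UMIs of both *Xist* and *Ddx3y*, which marks doublets of a female and a male cell. Single-cell levels are given as summed UMIs of a gene per 10,000 UMIs of its cluster. Each has an exact Poisson 95% interval that covers counting error only, because there was 1 library a strain and cells are not replicates.

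*Smoc2* and *Thbs2* lie near each other on chromosome 17. On GRCm38, *Smoc2* (ENSMUSG00000023886) spans chr17:14279506-14404790 on the plus strand and *Thbs2* (ENSMUSG00000023885) spans chr17:14665500-14694235 on the minus strand. The 260709 bases between them hold 2 other annotated genes, Gm38551 and Gm49720. *Comp* (ENSMUSG00000031849) spans chr8:70373558-70382066 on the plus strand, *Smoc1* chr12:81026808-81186414 on the plus strand and *Serpinf1* chr11:75409769-75422701 on the minus strand. *Thbs1* is at chr2:118111876-118127133, *Sparc* at chr11:55394500-55423183, *Sparcl1* at chr5:104079111-104113733, *Tnc* at chr4:63959785-64047015 and *Postn* at chr3:54361109-54391037. An exon of *Thbs1* overlaps the antisense gene Gm29233, and an exon of *Tnc* overlaps the antisense gene 8030451A03Rik. Whether the bulk counting used strand is not given in the sources used here, so bulk reads of these pairs may not be told apart.

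The data bear on the Hedgehog pathway. The 250 bases before each RefSeq start were therefore searched, on both strands, for the letters GACCACCCA, the consensus bound by GLI factors. They were also searched for its last 7 bases, CCACCCA. Promoters were at hand for 5 of the 10 genes, *Postn*, *Serpinf1*, *Sparc*, *Thbs2* and *Tnc*. None held the full consensus, which 0.225% of 32851 RefSeq promoters hold. *Thbs2* held the shorter motif, which 8.11% of all promoters hold, and it is shown because it was the only match among the members. The window is chr17:14694263-14694512 of GRCm38.p6 on the minus strand, written 5′ to 3′ toward the start, and the capitals mark the reverse complement of CCACCCA, beginning 31 bases before the start.
*Thbs2*: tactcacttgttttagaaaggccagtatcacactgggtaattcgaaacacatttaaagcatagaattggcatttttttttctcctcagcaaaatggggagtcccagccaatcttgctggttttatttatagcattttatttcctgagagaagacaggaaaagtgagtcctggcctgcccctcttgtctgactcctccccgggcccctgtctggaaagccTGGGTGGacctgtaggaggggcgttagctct
A match of these letters is a description of the window and no evidence of binding. On either strand, *Postn*, *Thbs2* and *Tnc* also held TATAAA, the letters of the TATA box, as 12.4% of all promoters do. In the *Thbs2* window the letters stand only as the reverse complement TTTATA, which is not the orientation of a TATA box for this start.

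The 10 genes divided between the cell types of the RPE/choroid, and 2 of them, *Comp* and *Smoc2*, were found mostly in stromal cluster 7. That cluster had 185 cells in the B6129PF1/J library and 158 in the C57BL/6J library. *Serpinf1* and *Thbs2* were also highest there, *Smoc1* was highest in stromal cluster 5, *Sparcl1* in smooth muscle cells, *Thbs1* in RPE and *Sparc* in Schwann cells. *Postn* was highest in stromal cluster 6 or Schwann cluster 12, depending on the library, and *Tnc* was almost undetected.

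**Figure D1:**
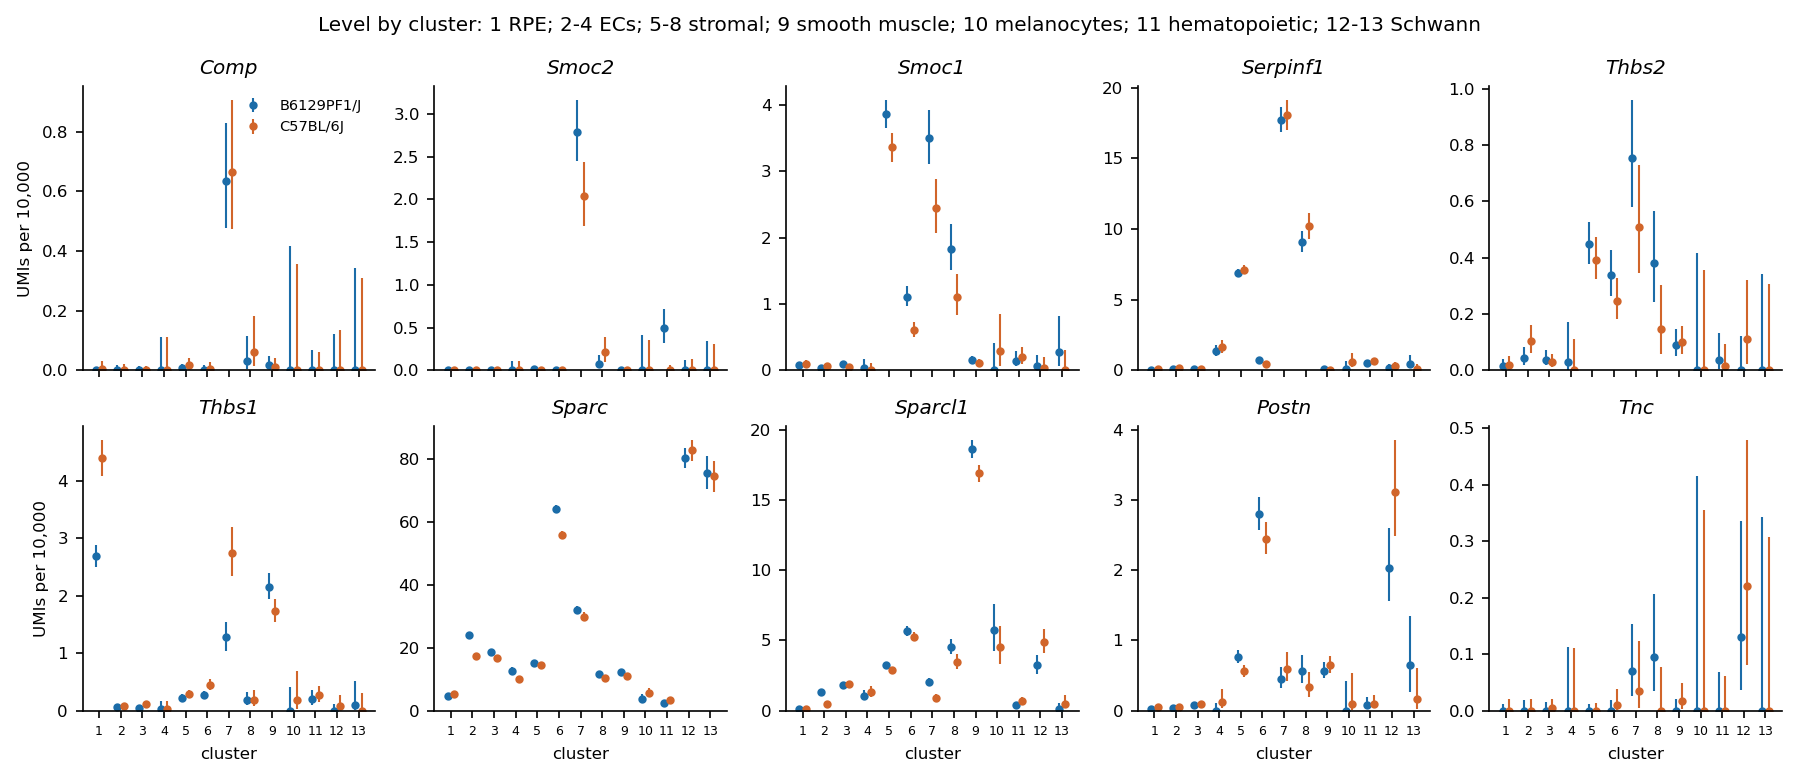
Level of the 10 genes in each of the 13 clusters, 1 panel a gene, with the cluster on the x axis and summed UMIs per 10,000 UMIs on the y axis. Points are the 2 libraries and bars are exact Poisson 95% intervals. *Comp* and *Smoc2* stood out in cluster 7 in both libraries, whereas *Sparc* was found in every cluster.

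Among the thrombospondins, *Comp* was at 0.636 UMIs per 10,000 in cluster 7 of the B6129PF1/J library (0.478 to 0.83, 54 UMIs) and at 0.664 in the C57BL/6J library (0.472 to 0.907, 39 UMIs). Cluster 8 came next, with 2 and 3 UMIs in all. Cluster 7 held 88.5% and 76.5% of the *Comp* UMIs of the libraries. No *Comp* UMI was counted in any of the 3 EC clusters of either library, and 3 counts there would correspond to between 0.0111 and 0.0917 UMIs per 10,000. *Comp* was thus a rare transcript even where it was highest. A *Comp* UMI was found in 25 of 185 cells (13.5%) and 18 of 158 cells (11.4%) of cluster 7, and in 7.03% and 6.96% once each cell was thinned to 1700 UMIs. In RPE of the B6129PF1/J library, deeper at a median of 5263 UMIs per cell than cluster 7 at 4318, a *Comp* UMI was found in 0 of 407 cells, which allows a share of cells with a UMI of up to 0.902% (exact binomial 95% limit) and sets no limit on cells that express it. In RPE of the C57BL/6J library it was found in 1 of 374 cells.

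*Thbs2* was spread over all 4 stromal clusters. Its level in the B6129PF1/J library was 0.754 UMIs per 10,000 in cluster 7, 0.447 in cluster 5, 0.38 in cluster 8 and 0.338 in cluster 6. In the C57BL/6J library the corresponding levels were 0.511, 0.394, 0.147 and 0.247. The level in cluster 7 was 1.69 times that in cluster 5 in the B6129PF1/J library (interval of the ratio 1.23 to 2.28) and 1.30 times in the C57BL/6J library (0.836 to 1.96), so these neighbours differed beyond counting error in the first library only. The 4 stromal clusters held 87.9% and 78.8% of its UMIs.

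*Thbs1* had another distribution from both relatives. RPE led, at 2.68 UMIs per 10,000 (2.502 to 2.88) in the B6129PF1/J library and 4.39 (4.08 to 4.71) in the C57BL/6J library, and held 54.8% and 51.9% of all *Thbs1* UMIs. Smooth muscle cells followed at 2.16 and 1.73, and cluster 7 stood at 1.27 and 2.74. The order of these 2 clusters therefore turned between the libraries. ECs were at or below 0.115 UMIs per 10,000 in each EC cluster of both libraries.

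In the SPARC family, *Smoc2* was the member with the narrowest distribution. Its level in cluster 7 was 2.79 UMIs per 10,000 (2.45 to 3.17, 237 UMIs) in the B6129PF1/J library and 2.04 (1.69 to 2.44, 120 UMIs) in the C57BL/6J library. This was 35.3 times (14.9 to 110) and 9.75 times (5.12 to 20.9) the level of cluster 8. Cluster 7 held 85.6% and 90.2% of all *Smoc2* UMIs. *Smoc2* was found in 31.4% and 36.7% of cluster 7 cells, and in 20.0% and 25.9% at 1700 UMIs a cell, against 1 of 407 RPE cells of the B6129PF1/J library (0.246%). Hematopoietic cells of the B6129PF1/J library ranked second at 0.493 UMIs per 10,000, but all 27 UMIs lay in a single cell. That cell also held 119 UMIs of *Dcn* and 10 of *Serpinf1*, beside 26 of *Lyz2*, 3 of *Cd68* and 1 of *Ptprc*, so it carried stromal and hematopoietic transcripts together. Without it, the hematopoietic cells of that library had no *Smoc2* UMI.

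*Smoc1* was stromal as well but distributed differently from *Smoc2*. Its level in cluster 5 was 3.86 UMIs per 10,000 in the B6129PF1/J library and 3.36 in the C57BL/6J library, with cluster 7 at 3.497 and 2.45. The ratio of cluster 5 to cluster 7 was 1.10 (0.971 to 1.26) in the first library, within counting error, and 1.37 (1.15 to 1.64) in the second. Clusters 8 and 6 were lower, at 1.83 and 1.11 UMIs per 10,000 in the B6129PF1/J library and at 1.11 and 0.605 in the C57BL/6J library. The stromal clusters held 95.1% and 94.2% of its UMIs, and cluster 5 alone 62.4% and 70.5%.

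*Sparc* was the most abundant of the 10 and the only one besides *Sparcl1* and *Serpinf1* with UMIs in every cluster of both libraries. Its highest levels were 80.4 and 82.7 UMIs per 10,000 in Schwann cluster 12, then 75.7 and 74.4 in Schwann cluster 13, then 64.2 and 55.9 in stromal cluster 6. Cluster 7, the leading cluster for *Comp* and *Smoc2*, was at 32.1 and 29.8. Among the ECs the level was lowest in the *Kdr*-low cluster. In the B6129PF1/J library it was 24.0 in *Kdr*-high, 18.6 in *Kdr*-med and 12.7 in *Kdr*-low ECs. In the C57BL/6J library it was 17.5, 16.8 and 9.94, and the first pair lay within counting error. Hematopoietic cells had the lowest level, 2.47 and 3.41 UMIs per 10,000, and 16.98% and 24.4% of them had a *Sparc* UMI. Free RNA could add to such low shares, and its part was not tested.

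*Sparcl1* marked smooth muscle cells, at 18.6 UMIs per 10,000 in the B6129PF1/J library and 16.9 in the C57BL/6J library, and this cluster held 48.0% and 50.9% of its UMIs. Stromal cluster 6 (5.66 and 5.26), melanocytes (5.74 and 4.53) and, in the C57BL/6J library, Schwann cluster 12 followed, with intervals that overlapped. The Schwann clusters, which were alike in *Sparc*, were unlike in *Sparcl1*. Cluster 12 was at 3.24 and 4.88 UMIs per 10,000, whereas cluster 13 was at 0.0931 (1 UMI) and 0.501.

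**Figure D2:**
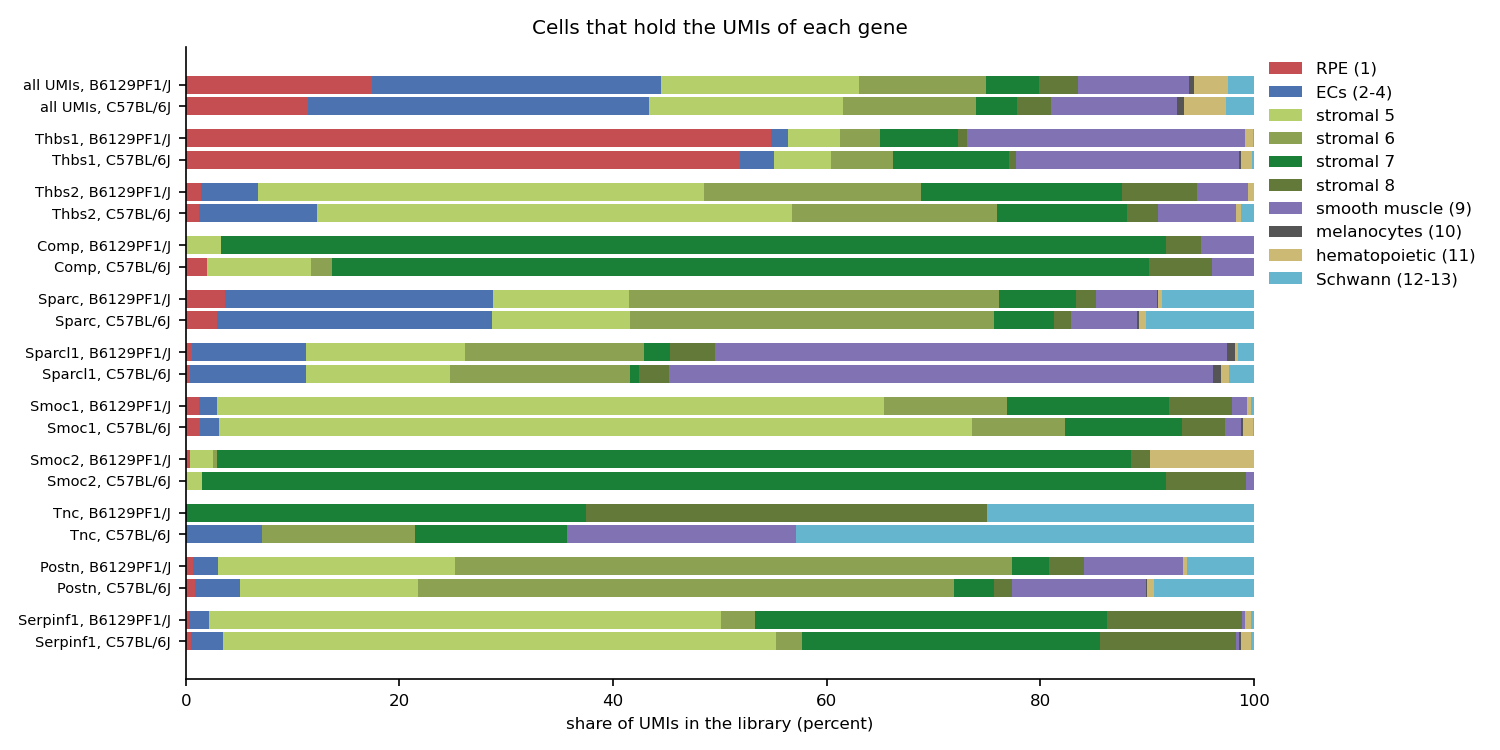
Share of each gene's UMIs (x axis, percent) that came from each cluster or group of clusters, as stacked horizontal bars that sum to 100%, 1 bar for each gene and library, with the share of all UMIs in the top bars. Cluster 7 took 88.5% and 76.5% of *Comp* and 85.6% and 90.2% of *Smoc2*, while RPE took 54.8% and 51.9% of *Thbs1*.

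*Postn* was at 2.80 UMIs per 10,000 in stromal cluster 6 and 2.03 in Schwann cluster 12 of the B6129PF1/J library. In the C57BL/6J library the order was the other way, with 2.45 in cluster 6 and 3.12 in cluster 12. The ratio of cluster 12 to cluster 6 was 0.724 (0.548 to 0.942) and 1.27 (0.999 to 1.61). Schwann cluster 13 was lower, at 0.651 and 0.167. *Tnc* gave 16 and 14 UMIs in the whole libraries. Schwann cluster 12 had the highest *Tnc* level, 0.131 (4 UMIs) and 0.22 (6 UMIs), but its interval overlapped that of the next cluster in both libraries, and no order among the clusters could be read at this depth.

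*Serpinf1*, the gene of PEDF, was the second most abundant member in cluster 7. Its level there was 17.7 UMIs per 10,000 in the B6129PF1/J library and 18.0 in the C57BL/6J library. Cluster 8 was at 9.10 and 10.2, and cluster 5 at 6.90 and 7.11. Stromal cluster 6 stood apart from the other stromal clusters, at 0.715 and 0.479. RPE, the cell type in which PEDF is best known, was at 0.05 and 0.103, so that cluster 7 was 355 times (214 to 636) and 175 times (110 to 297) as high. A *Serpinf1* UMI was found in 3.19% of 407 and 2.14% of 374 RPE cells. The freshly sorted RPE cells thus had low *Serpinf1* at a median depth of 5263 and 3406.5 UMIs.

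Among ECs, *Serpinf1* was found mainly in the *Kdr*-low cluster, at 1.34 UMIs per 10,000 (0.977 to 1.8) in the B6129PF1/J library and 1.66 (1.25 to 2.16) in the C57BL/6J library. It was found in 39.7% of 63 and 44.4% of 72 *Kdr*-low cells. *Kdr*-high ECs were at 0.0735 and 0.153 UMIs per 10,000. The *Kdr*-low level was 18.3 times (9.84 to 36.1) and 10.8 times (6.76 to 17.7) as high. It was also 12.0 and 13.6 times the level of *Kdr*-med ECs. The interval of *Kdr*-low ECs overlapped neither of the other EC clusters in either library, while those of *Kdr*-high and *Kdr*-med ECs overlapped each other.

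Within cluster 7, *Comp* and *Smoc2* were found in cells that differed in other transcripts. Cells with a *Comp* UMI were high in a list of sclera, tendon and cartilage markers, of which 9 of 11 genes were measured. Over all cells, those with a *Smoc2* UMI had a lower summed level of the list than those without. In the B6129PF1/J library the summed level of the list was 79.4 UMIs per 10,000 (74.4 to 84.6) in the 25 cells with *Comp* and 9.37 in the 160 cells without. In the C57BL/6J library it was 29.7 (26.1 to 33.8) in 18 cells and 1.63 in 140 cells, a ratio of 18.2 that was 9.89 without the single cell with the most UMIs of the list. The level was higher in cells with *Comp* for 8 of the 9 genes in the B6129PF1/J library and for 5 in the C57BL/6J library, where 3 were at 0, and *Sox9* was lower in both, at 0.251 against 0.685 and 0.251 against 0.886. Among the higher genes were *Chad* (chondroadherin, a cartilage matrix protein), *Fmod* (fibromodulin, a collagen-binding proteoglycan), *Tnmd* (tenomodulin, a tendon and ligament protein) and *Scx* (scleraxis, the transcription factor of tendon cells). *Chad* was found in 10 of 25 cells with *Comp* against 13 of 160 without, and in 7 of 18 against 3 of 140. *Fmod* was found in 9 of 25 cells with *Comp* against 17 of 160 without, and in 5 of 18 against 5 of 140. *Tnmd* was found in 10 of 25 against 15 of 160, and in 6 of 18 against 5 of 140. *Scx* was found in 7 of 25 against 4 of 160, and in 3 of 18 against 0 of 140. The cells with *Comp* were deeper, at median depths of 4902 against 4167.5 and 4289.5 against 3356.5 UMIs, and among cells between the quartiles of depth the list level was 9.57 and 6.44 times as high in those with *Comp*.

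Cells with *Smoc2* showed the lower list level in both libraries, though not in every subset. The list was at 2.18 UMIs per 10,000 (1.66 to 2.81) in the 58 cells with *Smoc2* of the B6129PF1/J library and at 27.4 in the 127 cells without. In the C57BL/6J library it was at 2.82 (2.18 to 3.58) in 58 cells and at 7.19 in 100 cells. The level was lower in cells with *Smoc2* for 8 of the 9 genes in the B6129PF1/J library. In the C57BL/6J library 4 were lower, 2 were higher and 3 were at 0. *Chad* was higher there, at 0.555 with and 0.255 without *Smoc2*, with intervals that overlapped. Among C57BL/6J cells between the quartiles of depth, however, the ratio of cells with to cells without *Smoc2* was 1.07, against 0.392 over all cells, so the lower level held in the B6129PF1/J library and not in these cells. *Fmod* was found in 2 of 58 cells with *Smoc2* against 24 of 127 without in the B6129PF1/J library, and in 1 of 58 against 9 of 100 in the C57BL/6J library. The 2 genes were not exclusive. *Comp* was found in 7 of 58 cells with *Smoc2* and 18 of 127 without, and in 8 of 58 and 10 of 100. The keratocan gene *Kera* gave 239 UMIs among the B6129PF1/J cells of cluster 7 and 0 among the C57BL/6J cells. The tissue was dissected from the sclera, and the part of scleral cells in these values was not tested.

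**Figure D3:**
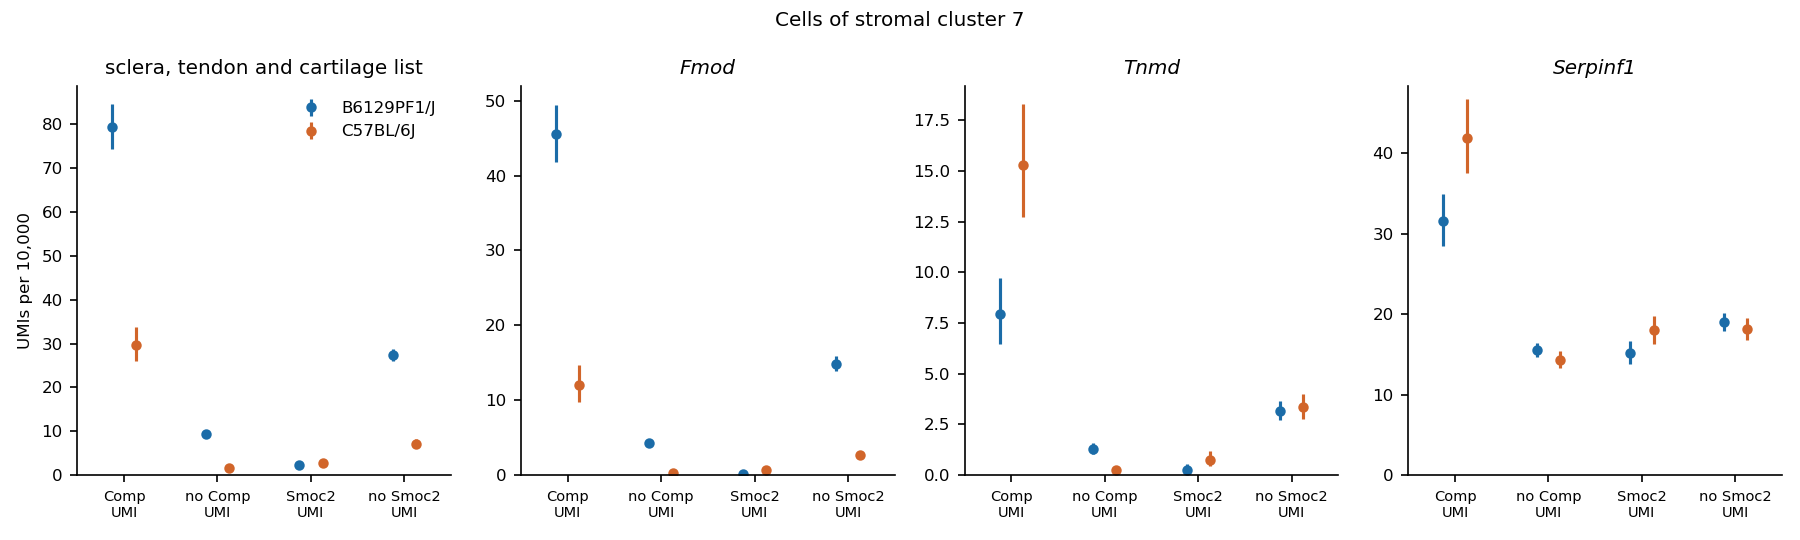
Level (UMIs per 10,000, y axis from 0) of the sclera, tendon and cartilage list, *Fmod*, *Tnmd* and *Serpinf1* in cluster 7 cells with and without a UMI of *Comp* or *Smoc2* (x axis), colored by library, with exact Poisson 95% intervals. The list level was higher in cells with *Comp* in both libraries, at 79.4 against 9.37 and 29.7 against 1.63.

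Other members of the 10 also differed between these cells. *Serpinf1* was at 31.5 UMIs per 10,000 in cells with *Comp* and 15.5 in cells without in the B6129PF1/J library, and at 41.9 and 14.3 in the C57BL/6J library. *Sparc* was at 49.2 and 29.3, and at 39.7 and 28.3. The stromal proteoglycan *Lum* went the other way, at 6.71 and 18.8, and at 8.03 and 24.0. *Thbs1* was nearly equal in the B6129PF1/J library, at 1.34 with and 1.26 without *Comp*, but stood at 11.4 and 1.38 in the C57BL/6J library. In cells with *Smoc2*, *Sparcl1* was at 4.0 against 1.06 in cells without, and at 1.37 against 0.594. Markers of other cell types differed along both splits. The 3 smooth muscle markers summed to 2.68 UMIs per 10,000 with *Comp* and 0.781 without in the B6129PF1/J library, and to 11.5 and 0.492 in the C57BL/6J library, with 3 of 3 higher in both. The levels with *Comp* rested on few cells, with 23 *Acta2* UMIs in 3 of 25 cells and 73 in 7 of 18. With and without *Smoc2* the 3 smooth muscle markers summed to 1.49 and 0.836, and to 2.95 and 1.36, again with 3 of 3 higher. The 3 pericyte markers, almost all of whose UMIs were of *Rgs5*, summed to 12.6 and 8.53 with and without *Smoc2*, and to 13.7 and 6.17. Only 1 of 3 was higher with *Smoc2* in the B6129PF1/J library and 2 of 3 in the C57BL/6J library. *Rgs5* was itself highest in smooth muscle cells of the C57BL/6J library, at 99.3 UMIs per 10,000. The 6 EC markers summed to 3.75 with and 0.801 without *Smoc2* in the B6129PF1/J library, but to 1.02 and 2.01 in the C57BL/6J library. The B6129PF1/J level with *Smoc2* rested on few of 58 cells, with 53 *Plvap* UMIs in 7 cells, 17 *Flt1* UMIs in 2 and 15 *Kdr* UMIs in 1. With and without *Comp* the EC markers summed to 0.335 and 1.99, with 5 of 6 lower. In the C57BL/6J library they summed to 0.878 and 1.73, with 6 of 6 lower and intervals of the sums that overlapped. The part of these cell types in the members' levels was not tested.

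The genes with the most similar profile over the 26 cluster levels (13 clusters in 2 libraries) were ranked by Pearson's r, which is a description because the points share libraries and depth. For *Smoc2* they were *Myoc* (myocilin, r = 0.929), *Igfbp6* (0.907) and *Fmod* (0.875). For *Smoc1* they were *Cdh11* (a mesenchymal cadherin, 0.963), *Hs3st3a1* (0.953) and *Cygb* (0.948). *Serpinf1* was most similar to *Pla2g4a* (0.919), *Cpxm1* (0.913) and the Wnt ligand *Wnt5a* (0.905), *Postn* to *Olfml2b* (0.951) and *Gfra2* (0.947), and *Thbs1* to *Perp* (0.945), *Cpxm2* (0.810) and *Vit* (0.804). *Sparc* (*Mbnl2*, 0.833) and *Sparcl1* (*Mapre2*, 0.844) had less similar neighbours. *Comp*, *Thbs2* and *Tnc* stayed below 1 UMI per 10,000 in every cluster and were not ranked.

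The cluster with the highest level was the same in both libraries for 9 of the 10 genes, with *Postn* the exception. Not all of these leads were resolved. For *Tnc* no order could be read. The lead over the next cluster lay within counting error for *Smoc1* and *Sparc* (ratio 1.06, 0.981 to 1.15) in the B6129PF1/J library. It did so for *Thbs2* and *Postn* in the C57BL/6J library. The libraries also differed in level. Of 37 pairs of a gene and a cluster that reached 1 UMI per 10,000 in either library, the intervals overlapped in 18 and did not in 19. The B6129PF1/J library was the higher in 14 of the 19 and the C57BL/6J library in 5. Over the 22248 such pairs of all genes, the intervals did not overlap with B6129PF1/J higher in 8.66% and with C57BL/6J higher in 9.9%. The intervals of abundant genes are narrower, so nothing is read from the difference. *Thbs1* was higher in C57BL/6J, 1.63 times in RPE and 2.15 times in cluster 7. *Smoc1* was lower in C57BL/6J in cluster 6 (ratio 0.544) and cluster 8 (0.605), and *Sparcl1* in *Kdr*-high ECs (0.352). With 1 library a strain, a strain and its library cannot be told apart.

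In bulk RPE/choroid, *Comp* and *Smoc2*, found mostly in stromal cluster 7, had the lowest ratios of the 10 after EC deletion of *Ihh*. The table gives the authors' mean FPKM (fragments scaled to transcript length and library size) of 3 libraries a group, so there is no spread and no test. Ratios are log2 of the means after adding 0.1 FPKM. The mean for *Ihh* itself was 1.53 FPKM in *Ihh*+/+ and 0.454 in *Ihh* iΔEC/iΔEC mice. *Smoc2* was at 7.11 in *Ihh*+/+ and 3.43 in *Ihh* iΔEC/iΔEC mice, a log2 ratio of -1.03. *Comp* was at 9.38 and 4.65, a log2 ratio of -0.997. *Thbs2*, the other stromal thrombospondin of the 10, was at 7.34 and 5.00 (-0.55). Other genes highest in cluster 7 in both libraries had unequal ratios. Among them, the Hedgehog response gene *Hhip* was at -1.37, the collagen gene *Col1a1* at -0.79, *Myoc* at -0.35 and *Wisp2* at 0.28.

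The other SPARC family members had ratios nearer to 0, apart from *Sparcl1*. *Sparcl1* was at 46.6 and 27.9 FPKM, a log2 ratio of -0.74. Smooth muscle cells, which held 48.0% and 50.9% of its UMIs, had markers at -0.35 to -0.05. The stromal clusters, which held 38.3% and 33.95%, had markers with a median of -0.67. Cluster 6, the stromal cluster with the highest *Sparcl1* level, was also highest for the stromal marker *Pdgfrb*, at -0.26. Pericyte markers had a median of -0.04. The part of each cell type in the *Sparcl1* ratio was not tested. *Sparc* was at 174 and 144 (-0.28), and *Smoc1* at 55.3 and 47.6 (-0.22). *Smoc1* and *Smoc2* are close relatives and both stromal, and their log2 ratios were -0.22 and -1.03. *Serpinf1* was at 107 and 82.6 (-0.37). *Tnc* was at 1.08 and 0.656 (-0.64), close to the limit of 1 FPKM. *Postn* was at 5.55 and 6.25 (0.17) and *Thbs1* at 62.6 and 76.1 (0.28), and these were the 2 members with a higher mean after deletion. RPE held 54.8% and 51.9% of the *Thbs1* UMIs, and the part of each cell type in its ratio was not tested.

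**Figure D4:**
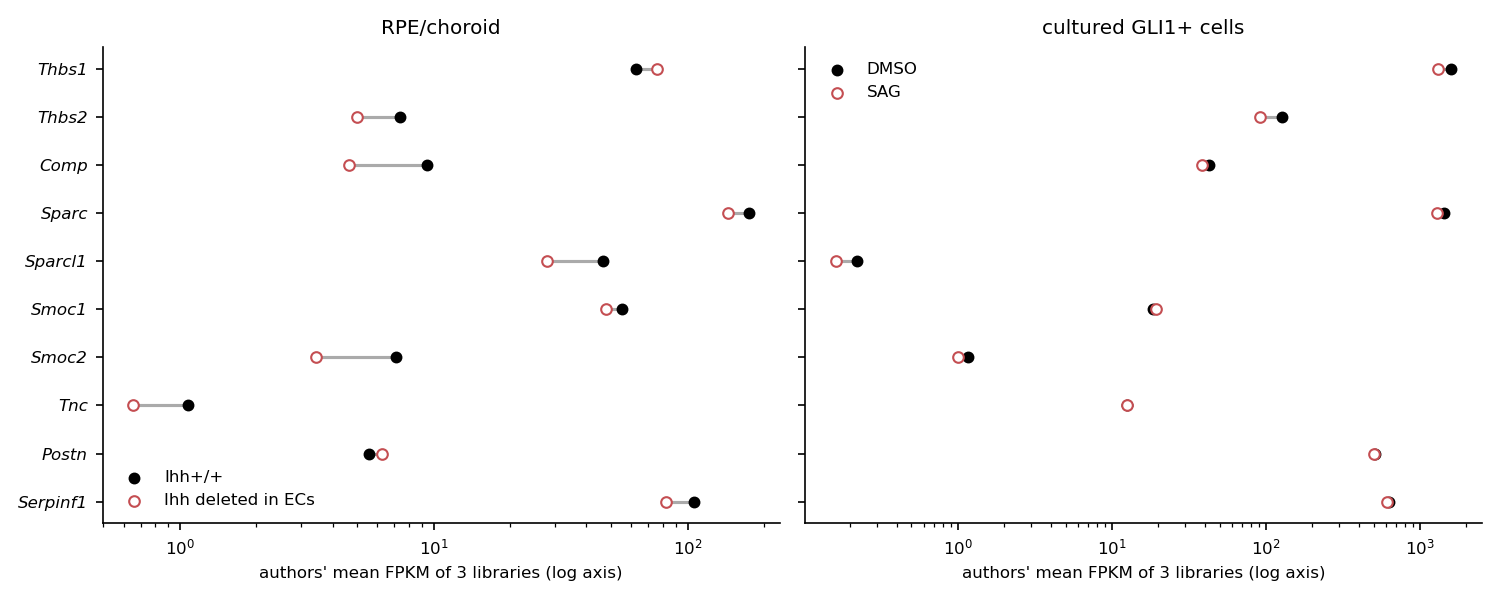
The authors' mean FPKM (x axes, log scale) of the 10 genes (y axis) in RPE/choroid of both *Ihh* genotypes, left, and in GLI1+ cells given DMSO or SAG, right, with filled points for the control, open points for the other group and a line between them. Each point is a mean of 3 libraries without an error, and the widest gaps in tissue are those of *Smoc2* (7.11 and 3.43 FPKM) and *Comp* (9.38 and 4.65).

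All 10 genes reached 1 FPKM in the higher group. Of these, 4 (*Smoc2*, *Comp*, *Sparcl1* and *Tnc*) were lower past 1.5-fold and 0 were higher. Over the 11411 genes at that level, 2.41% were lower past 1.5-fold and 2.02% were higher. Because the genes were chosen with these ratios known, nothing is read from that excess. The median log2 ratio was -0.46 over the 10 and -0.04 over all genes, and 1 member, *Smoc2*, was lower and 0 were higher past 2-fold, against 0.648% and 1.03% of all genes.

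Marker lists of whole cell types had unequal ratios too, and in bulk tissue fewer cells of a type and less RNA per cell cannot be told apart. All 6 stromal markers were lower, 4 of them past 1.5-fold, with a summed level of 732 FPKM in *Ihh*+/+ and 469 in *Ihh* iΔEC/iΔEC mice and a median log2 ratio of -0.67. All 3 melanocyte markers were lower, 2 past 1.5-fold (1397 and 831), and all 6 photoreceptor markers were lower past 1.5-fold (92.2 and 33.5). EC markers were below 0 in 6 of 6 (207 and 174), smooth muscle markers in 3 of 3 (56.7 and 50.7), pericyte markers in 2 of 3 (79.9 and 67.8), and Schwann markers in 2 of 3 (32.9 and 32.6), with none past 1.5-fold. RPE markers were above 0 in 2 of 2 (1289 and 1617) and hematopoietic markers in 2 of 3 (584 and 804), none past 1.5-fold. Skeletal muscle markers were above 0 in 6 of 6, 1 past 1.5-fold (281 and 368). Of 6 sclera, tendon and cartilage markers at 1 FPKM, 5 were below 0 and 1, *Tnmd*, was lower past 1.5-fold (6.65 and 3.66), with sums of 94.8 and 79.2. The part of each of these cell types in the members' ratios was not tested.

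**Figure D5:**
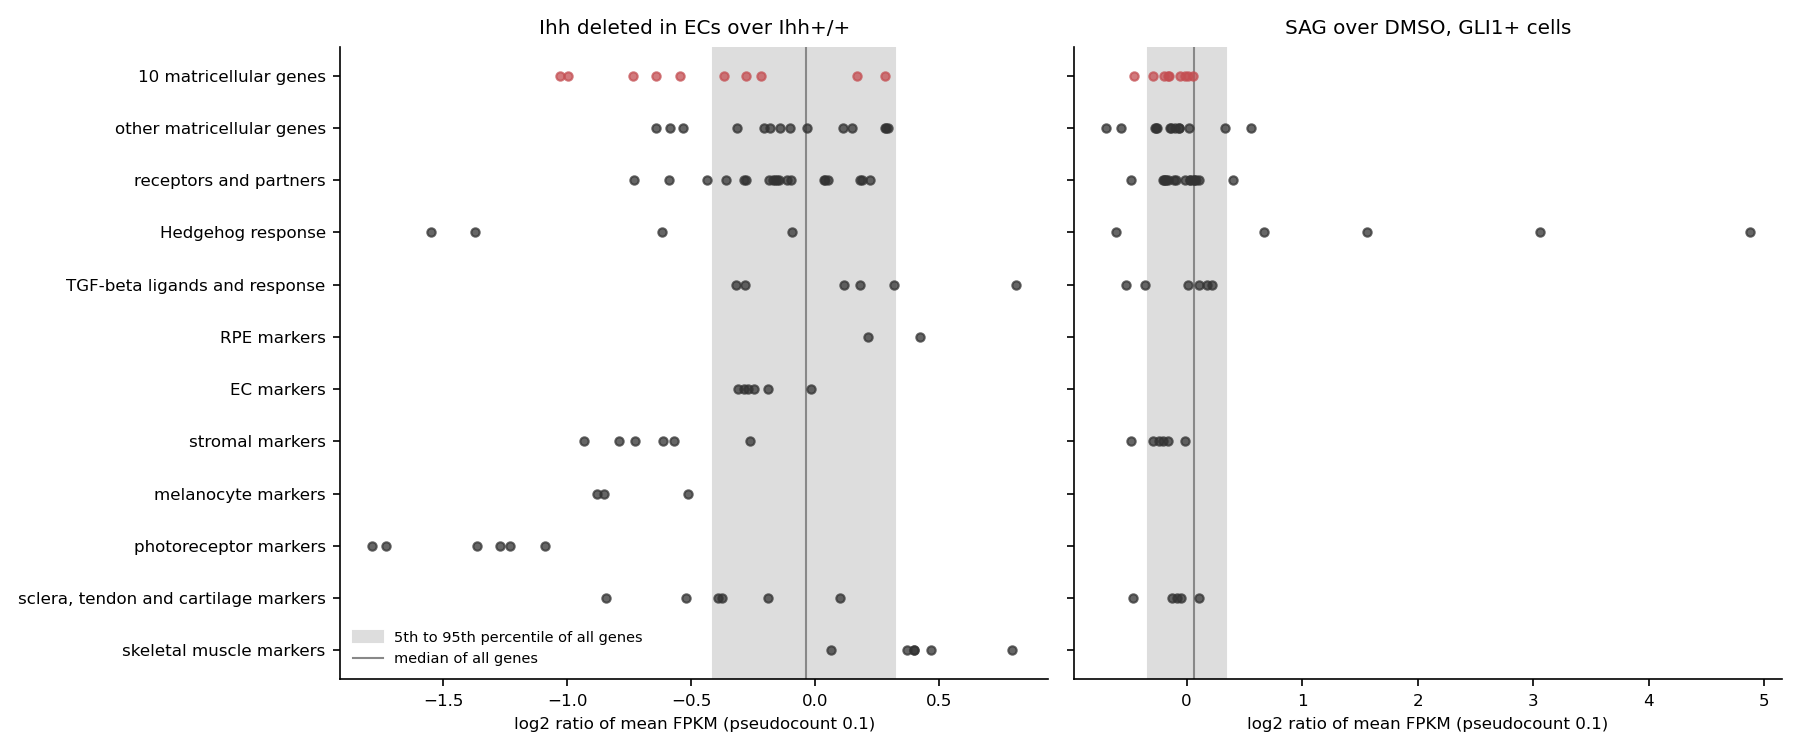
Log2 ratio of the group means (FPKM plus 0.1, x axes) in *Ihh* deleted over control RPE/choroid, left, and in SAG over DMSO GLI1+ cells, right, with 1 point for each gene of at least 1 FPKM, by list (y axis), and the median and the central 90% of all such genes as a line and a band. *Smoc2* at -1.03 and *Comp* at -0.997 lie below the stromal markers' median of -0.67 and near the lowest of these markers, *Lum* at -0.93. The members' SAG ratios lie between -0.46 and 0.05.

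Genes that work with the 10 were read from fixed lists. Of 14 other matricellular genes at 1 FPKM, 2 were lower past 1.5-fold, the thrombospondin *Thbs4* (69.6 and 44.6 FPKM) and osteopontin, *Spp1* (125 and 83.2), and 0 were higher. Of 19 receptors and partners, 2 were lower, *Stab1*, a scavenger receptor that takes up SPARC, and *Plxdc1*, a PEDF receptor, and 0 were higher. Of 4 Hedgehog response genes at 1 FPKM, 3 were lower, namely *Gli1* (9.40 and 3.15), *Ptch1* (7.69 and 4.98) and *Hhip* (1.05 and 0.346).

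In cultured GLI1+ cells, SAG came with higher Hedgehog response genes. None of the 9 member genes that reached 1 FPKM differed past 1.5-fold. *Gli1* was at 0.028 FPKM with DMSO and 3.65 with SAG, and *Ptch1* at 1.13 and 10.1. *Comp* was at 42.4 and 38.2, a log2 ratio of -0.15. *Smoc2* was at 1.17 and 1.01 (-0.20), close to the limit of 1 FPKM, so its ratio says little. *Thbs2* had the lowest ratio of the 9 genes at 1 FPKM, at 126 and 92.1 (-0.46), followed by *Thbs1* at 1594 and 1307 (-0.29). *Sparc* was at 1435 and 1282 (-0.16), *Serpinf1* at 632 and 607 (-0.06) and *Postn* at 507 and 503. *Smoc1* was at 18.5 and 19.2 and *Tnc* at 12.5 and 12.6, and the sign of these 2 turned when the means were scaled to the same median gene. Of the 9 genes, 0 were past 1.5-fold in either direction, against 2.37% lower and 1.3% higher over 10325 genes, and 0 were past 2-fold, against 1.1% lower and 0.368% higher. Their median was -0.15 against 0.06 over all. *Sparcl1* was at 0.221 and 0.161 FPKM, below the limit.

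The other lists gave few differences in culture. Of 13 other matricellular genes, 1 was lower past 1.5-fold, *Tgfbi* (8.38 and 5.13), and 0 were higher. None of 16 receptors and partners passed 1.5-fold. Of 5 Hedgehog response genes, 4 were higher and 1 lower. The markers of RPE, ECs, melanocytes, photoreceptors and skeletal muscle were below 1 FPKM in both groups, and 6 of 6 stromal markers were at or above it, with a summed level of 4184 with DMSO and 3763 with SAG. Of the markers of other cell types, 1 was past 1.5-fold, the Schwann gene *Mbp*, at 1.62 with DMSO and 1.04 with SAG.

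Between tissue and culture, the members kept unequal ranks. The tables were normalized separately, so ranks are set side by side and were not compared. *Comp* ranked above 78.8% of genes in *Ihh*+/+ tissue and above 95.6% in DMSO culture, and *Postn* above 67.5% and 99.7%. *Smoc2* ranked above 73.1% and 43.9%, and *Sparcl1* above 96.2% and 32.3%. *Comp* and *Smoc2*, which shared a cluster and a ratio near -1 in tissue, thus stood far apart in culture, at 42.4 and 1.17 FPKM. *Thbs1*, *Sparc* and *Serpinf1* were above 97.3%, 99.2% and 98.5% of genes in tissue and above 99.98%, 99.95% and 99.8% in culture.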

How the data were processed

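The members, lists and tests were chosen with earlier results of these data known. For scRNAseq, the authors aligned reads and counted UMIs with Cell Ranger and clustered cells with Seurat 2.1. The deposited tables hold UMI counts per cell with the authors' 13 clusters. The authors also deposited averages per cluster on a natural log scale (Seurat's ln of 1 + UMIs per 10,000), used here only as a check. Bulk reads were aligned by the authors with STAR 2.4.0f1 to mm10 and quantified with Cufflinks 2.0.2, and the deposited FPKM are means of 3 libraries a group. The depth behind them is unknown, and no SD or test was possible, so the planned limma test was not run. The authors' fold changes, adjusted p-values and cluster differences were not used, and 0 value columns were unmapped.

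UMIs were summed per cluster and library, with exact Poisson and Clopper-Pearson 95% intervals. Shares were repeated after thinning each cell to 1700 UMIs, which kept every cell. No doublets were removed. Bulk log2 ratios used a pseudocount of 0.1 FPKM and counts needed 1 FPKM in the higher group. The named genes were all 10 members, the 3 genes most similar to each member in log2(UMIs per 10,000 + 0.1) where it reached 1 UMI per 10,000, and genes of the lists at the highest level or past 1.5-fold; some genes under this rule are not reported here. Neural retina, lung, liver and heart ECs, which the paper compared with choroidal ECs, were left out. The description was limited to the single-cell libraries and the *Ihh* and SAG comparisons. Sequences are RefSeq's (GRCm38.p6). Scripts ran in Python 3.11.15 with pandas 2.3.3, NumPy 2.4.6, Matplotlib 3.10.9 and SciPy 1.17.1, and were tested on simulated data.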

Additional observations from a re-analysis of the deposited data

How the results depend on the processing

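The cluster with the highest level was the same for 10 of 10 genes in both libraries under every alternative, except that thinning moved *Smoc1* to cluster 7 and *Tnc* to cluster 8 in the B6129PF1/J library (8 of 10). Of 80 recomputed highest levels, 13 moved beyond their interval, and 0 by over 1.5 times. Shares of cells depend on depth, and 15 of 20 moved on thinning. In the *Ihh* comparison, 4 genes were lower past 1.5-fold, 3 with a pseudocount of 1 FPKM or an average of 1 FPKM, and 1 (*Smoc2*) at 2-fold. The median log2 ratio of the 10 lay between -0.46 and -0.35 for *Ihh* and between -0.22 and -0.09 for SAG. The ratios of the sclera, tendon and cartilage list in cluster 7 were recomputed under 4 alternatives chosen after seeing the data. With *Comp* the ratio was 8.47 (6.68 to 9.57) in the B6129PF1/J library and 18.2 (6.44 to 18.3) in the C57BL/6J library, where it was 9.89 without the cell with the most UMIs of the list. With *Smoc2* it was 0.0797 and reached 0.169 without *Fmod* in the B6129PF1/J library, and in the C57BL/6J library it was 0.392, 0.201 without that cell and 1.07 in cells of middle depth. Leaving out single bulk libraries was not run, because the tables hold group means. No paired analysis was possible because the bulk columns are means of groups and there was 1 single-cell library a strain. Counting error limits *Tnc* and *Comp*, and bulk depth is unknown.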

Other observations

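Of 21 other matricellular genes, 19 were measured in the single-cell tables, and 15 had the same highest cluster in both libraries. Stromal cluster 7, the cluster of *Comp* and *Smoc2*, was the highest for 8 of them in the B6129PF1/J library and 6 in the C57BL/6J library. *Thbs4*, a thrombospondin that forms pentamers as COMP does, was there at 4.004 and 3.39 UMIs per 10,000, and *Wisp2* at 0.648 and 0.477. *Ctgf* was highest there too but unequal between the libraries, at 12.95 and 2.81. Stromal cluster 6, where *Postn* was high, led for *Mgp* (156 and 133), an inhibitor of calcification, and for *Spp1* (84.1 and 108). *Nov* was highest in smooth muscle cells (3.66 and 4.22), as *Sparcl1* was, and *Spock1* in RPE (1.07 and 1.04), as *Thbs1* was. *Fbln2* was highest in *Kdr*-low ECs (6.32 and 5.17), the EC cluster with the highest *Serpinf1* level. These are values of 1 library a strain, with no test.

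*Cpxm1*, the gene second most similar to *Serpinf1* over the clusters, had a log2 ratio of -1.12 after EC deletion of *Ihh* (18.3 and 8.37 FPKM) and of 1.15 with SAG in GLI1+ cells (20.3 and 45.2 FPKM). It was singled out after its values were seen. *Serpinf1* itself was at -0.37 and -0.06.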
